A study of Homo sapiens with 14 samples.

Results

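OVCAR-3 cells are a long-established line from a human ovarian carcinoma. The genes described here are 10 that mark serous ovarian carcinoma and the Müllerian epithelium it resembles: the transcription factor genes PAX8, WT1, ESR1, SOX17, MECOM and EMX2, and the surface or secreted protein genes MUC16, MSLN, FOLR1 and WFDC2. They are a list of names that uses no measured value, though it was drawn up with earlier results of these arrays known. All 10 were measured among 18398 genes on 14 Affymetrix whole-transcript arrays. The tested cells were 5 separately derived sublines, R1, R3, R5, R6 and R7, resistant to PHA-533533, an inhibitor of the cell cycle kinase CDK2. Each subline was arrayed once at passage 5 in culture with 4 µM of the inhibitor (selected arrays, n = 5) and once at passage 10 or later with 0 µM (stable arrays, n = 5). Untreated parental OVCAR-3 cells gave the other 4 arrays (replicates 1 to 4). All cells were kept in the same serum-containing RPMI medium and collected before they reached confluence. Inhibitor and passage changed together between selected and stable arrays, so their effects cannot be told apart. Whether the parental replicates came from separate cultures is not stated, so the spread among parental arrays may be technical. The p-values of comparisons with parental cells rest in part on that spread. The spread among selected or among stable arrays also holds differences between sublines.

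High-grade serous carcinoma is thought to arise largely from secretory cells of the fallopian tube, and it keeps transcription factors of that lineage. PAX8 and SOX17 work together on shared targets in ovarian carcinoma cells, WT1 is used with PAX8 to tell serous from other carcinomas, and ESR1 encodes estrogen receptor alpha. MUC16 carries the CA125 epitope and binds mesothelin, the MSLN product, while WFDC2 encodes HE4, so both give serum markers of this tumour, and FOLR1 encodes folate receptor alpha, an antibody target.

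Promoter windows are shown for MUC16 and MECOM, the members with a called difference below. Each is the 250 bases before a RefSeq transcript start (GRCh38.p14), 5′ to 3′ on the minus strand, with GC boxes (GGGCGG) and CCAAT boxes (CCAAT) found on either strand in capitals. The first MUC16 start on chromosome 19 follows chr19:9065752-9066001. The first MECOM start on chromosome 3 follows chr3:169663713-169663962, and the second MECOM start, 516 kb downstream, follows chr3:169147472-169147721.
MUC16 start 1: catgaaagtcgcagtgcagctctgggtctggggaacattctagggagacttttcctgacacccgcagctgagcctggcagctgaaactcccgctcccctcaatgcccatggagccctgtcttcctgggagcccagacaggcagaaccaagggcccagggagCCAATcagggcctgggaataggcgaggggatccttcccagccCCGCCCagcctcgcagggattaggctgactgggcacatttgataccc
MECOM start 1: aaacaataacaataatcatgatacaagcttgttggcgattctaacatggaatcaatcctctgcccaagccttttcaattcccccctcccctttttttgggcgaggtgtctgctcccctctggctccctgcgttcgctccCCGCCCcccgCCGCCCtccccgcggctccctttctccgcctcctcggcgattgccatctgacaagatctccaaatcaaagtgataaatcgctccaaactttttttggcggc
MECOM start 2: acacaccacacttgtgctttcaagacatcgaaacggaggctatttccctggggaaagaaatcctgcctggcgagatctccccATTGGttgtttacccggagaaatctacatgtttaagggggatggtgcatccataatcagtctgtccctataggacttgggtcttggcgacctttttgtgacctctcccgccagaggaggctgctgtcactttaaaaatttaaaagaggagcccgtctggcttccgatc

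Windows were read for 7 of the 10 members. In the MUC16 window a CCAAT box began 89 bases and a GC box 47 bases before the start. The first MECOM window held GC boxes 111 and 101 bases before its start, whereas the second held 1 CCAAT box 168 bases before its start and no GC box. The last of the MECOM starts, 517 kb downstream of the first, had a GC box 81 bases before it. Over all 35116 RefSeq windows of this length, a GC box was present in 42.6% and a CCAAT box in 32% of them. Neither the AP-1 site (TGACTCA or TGAGTCA, in 4.2% of all windows) nor the E-box CACGTG (6.34%) nor TATAAA (10.7%) nor the palindromic estrogen response element (0.0399%) matched in the 3 windows printed. A match describes the letters of a window and no more.

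Values are given as deposited, on a log scale taken as base 2, on which a difference of 1 is a 2-fold change. Signals of different genes come from different probes, so members are not ranked by signal. Genes are compared only with a background level, as a rough gauge. Background in each array was gauged by the mean of 360 olfactory receptor genes, a family with almost no expression outside the nose and testis. It was 6.35 ± 0.21 (SD, n = 5) in selected, 6.51 ± 0.21 (SD, n = 5) in stable and 6.43 ± 0.22 (SD, n = 4) in parental arrays, and it was lower in the selected array in 5 of 5 sublines. The means of single olfactory receptor genes had their 95th percentile at 7.77. Of the members, 9 lay above 99.2% or more of the olfactory receptor genes, as means over 14 arrays. ESR1 averaged 6.45, above 52.8% of them, and so was not separable from background signal. The label of an epithelial line held in these arrays, where 13 of 14 measured epithelial markers lay above 7.77, among them EPCAM (11.83), KRT7 (12.87), KRT8 (13.10), KRT18 (12.61) and CDH1 (10.65). Of the markers of other cells, 3 of 12 for fibroblasts, 3 of 11 for leukocytes, 2 of 10 for endothelium, 3 of 11 for mesothelium and 2 of 12 for ciliated cells lay above 7.77. Among these were the fibroblast genes COL1A1 (9.08) and ACTA2 (9.55) and the mesothelial genes CDH2 (11.04) and KRT5 (11.03). The endothelial gene ERG (8.03) and the leukocyte gene CD68 (7.97) were among them too. Other genes of these lists were dim: PTPRC (leukocyte) averaged 5.35, PECAM1 (endothelial) 6.94, CALB2 (mesothelial) 7.11 and FOXJ1 (ciliated) 7.38, all below 7.77. Bulk RNA cannot tell fewer cells of a kind from less RNA per cell.

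**Figure D1:**
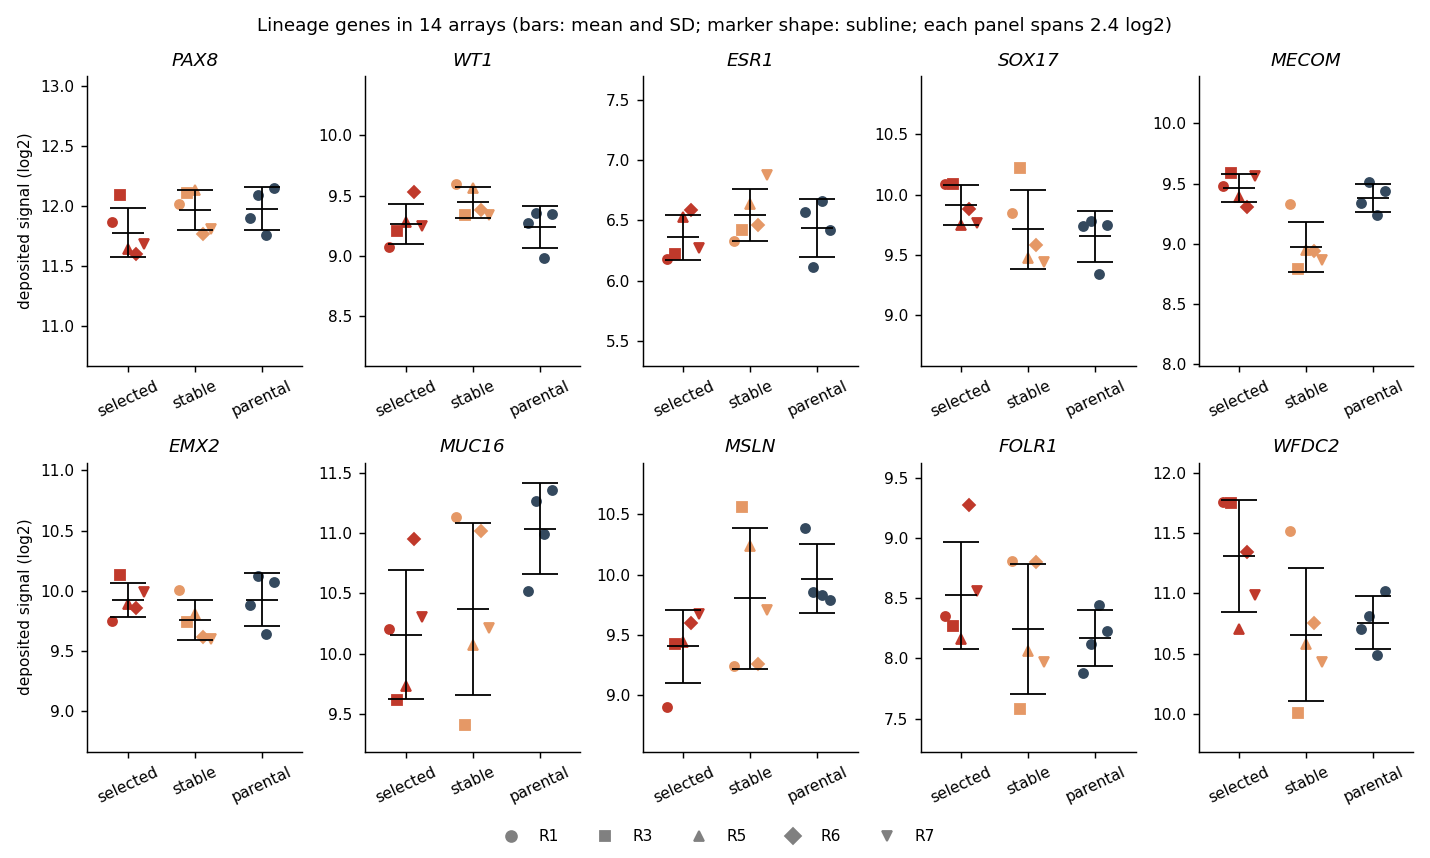
Log2 signal of each of the 10 lineage genes, 1 panel per gene, in selected, stable and parental arrays; points are single arrays, their shape the subline, and bars the group mean and SD. MUC16, MSLN, FOLR1 and WFDC2 spanned 1.66 to 1.95 over the 14 arrays, and the 6 transcription factor genes 0.54 to 0.88.

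The transcription factor genes varied less between arrays than the surface and secreted genes. Ranges over the 14 arrays were 0.54 for EMX2, 0.56 for PAX8, 0.62 for WT1, 0.76 for ESR1, 0.80 for MECOM and 0.88 for SOX17. They were 1.66 for MSLN, 1.69 for FOLR1, 1.75 for WFDC2 and 1.95 for MUC16. The plot of signal by group shows this split, in which no factor gene reached the range of any surface or secreted gene. ESR1 was not separable from background, so its range need not describe the gene's RNA. The split describes these 10 probe sets and was not tested.

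In selected against parental arrays, MUC16 and MSLN were lower and WFDC2, FOLR1 and SOX17 higher on average, but none of the 10 passed limma's adjusted threshold of 0.05. Over all genes 6.92% passed (5.03% higher and 1.89% lower). At an unadjusted p under 0.05 there were 4 members, MUC16, MSLN, WFDC2 and SOX17, beside 20.3% of all genes. The median difference of the 10 members was 0.013, beside -0.013 over all genes, and 5 of 10 were above 0. In stable against parental arrays 0 of 10 passed, as did only 0.00544% of all genes, which is 1 gene. MECOM was the 1 member at an unadjusted p under 0.05, beside 6.08% of all genes. The members' median there was -0.050, beside -0.004 over all genes. In selected against stable arrays 1 of 10 passed, MECOM, which was higher; among all genes 2.16% passed, 1.54% higher and 0.614% lower. At an unadjusted p under 0.05 there were 2, MECOM and WFDC2, beside 15.3% of all genes. Each pair of these comparisons shares 1 group of arrays, so they are not independent of each other.

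**Figure D2:**
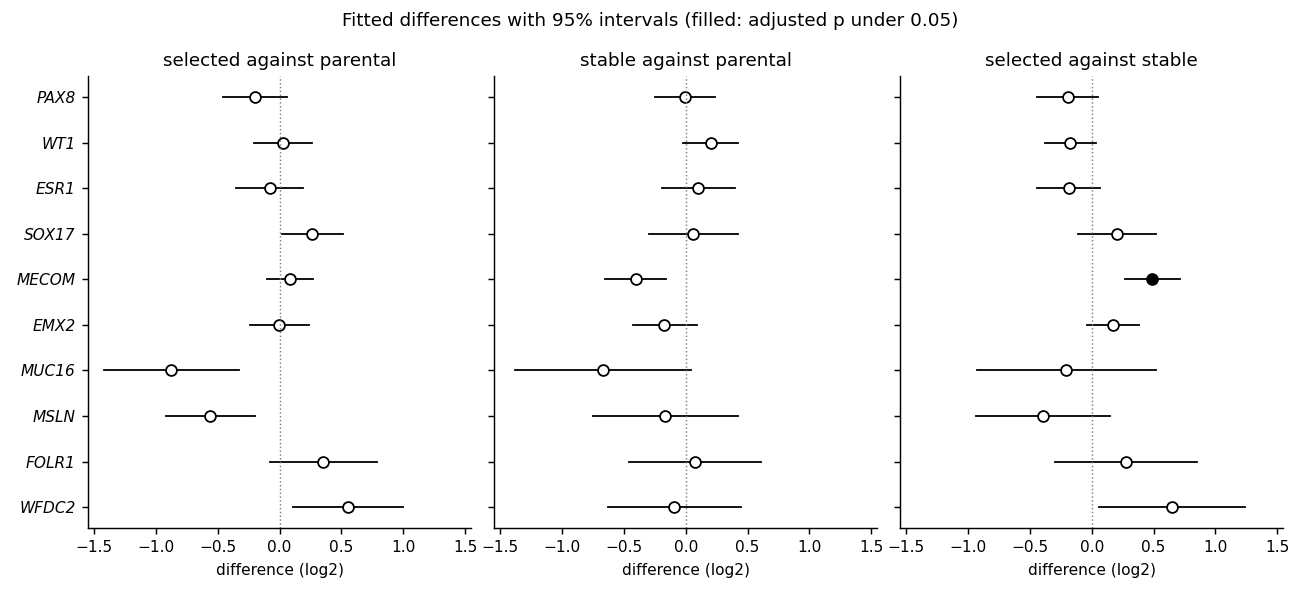
Log2 difference of each lineage gene in the 3 comparisons; points are the fitted differences and lines their 95% confidence intervals from limma, with a filled point where the adjusted p was under 0.05. The interval of MECOM in selected minus stable, 0.27 to 0.71, belongs to the 1 difference that passed the adjusted threshold.

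MECOM encodes a zinc finger transcription factor with a long form, MDS1-EVI1, and a shorter form, EVI1, made from separate starts. Its signal was 9.48, 9.59, 9.39, 9.31 and 9.56 in the selected arrays of R1, R3, R5, R6 and R7. It was 9.33, 8.79, 8.95, 8.94 and 8.87 in the stable arrays of the same sublines in that order, and 9.34, 9.51, 9.24 and 9.44 in the parental replicates. The stable arrays of R3, R5, R6 and R7 lay below every selected and parental array. The stable R1 array, at 9.33, lay above the lowest selected array, at 9.31, so the groups overlapped. No member was without overlap between selected and stable arrays, beside 2.83% of all genes higher and 1.33% lower without overlap.

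MECOM averaged 9.47 ± 0.12 in selected and 8.98 ± 0.21 in stable arrays (SD, n = 5 each). The difference was 0.49 (SE 0.102, adjusted p = 0.0337), a 1.40-fold higher level in selected arrays. It was higher in 5 of 5 sublines, by between 0.15 (R1) and 0.80 (R3). With subline as a replicate block the same difference had an SE of 0.100 and an adjusted p of 0.0333. Against parental arrays the selected difference was 0.08 (95% confidence interval -0.10 to 0.27, adjusted p = 0.688). The stable difference was -0.41 (-0.65 to -0.16, adjusted p = 0.426). The call was made in 10 of 21 alternatives, with adjusted p between 0.00463 and 0.741. It was lost in 8 of the 10 fits without 1 array (adjusted p 0.0562 to 0.0972), without both R7 arrays (0.226), and with the block and the olfactory receptor mean together (difference 0.33, adjusted p = 0.741), where none of the 18398 genes passed.

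MECOM has a second row on the array, and that row did not show the difference. Its signal ran from 8.12 to 8.37 in selected, 8.03 to 8.49 in stable and 8.18 to 8.51 in parental arrays, so all groups overlapped. The selected minus stable difference of that row was -0.05 (SE 0.095, adjusted p = 0.875). The mean of both rows gave 0.22 (adjusted p = 0.247). Which of the MECOM starts shown above each row follows was not determined.

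**Figure D3:**
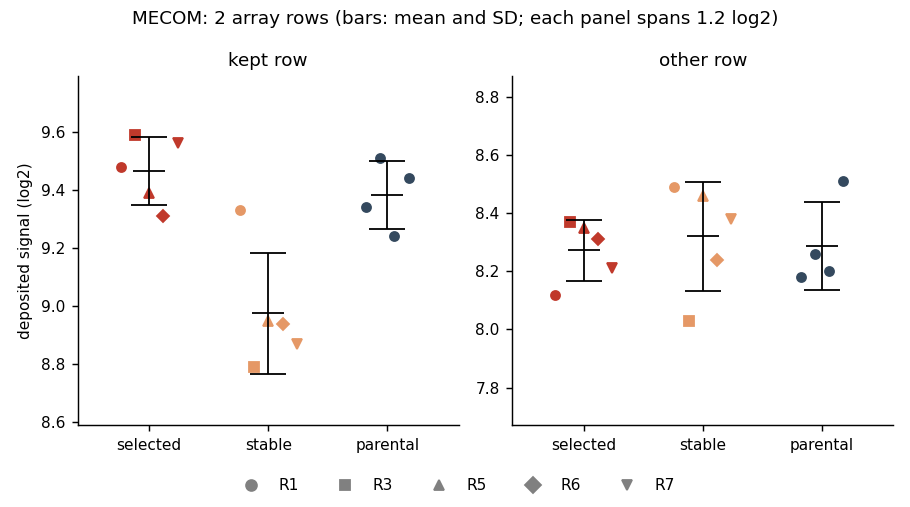
Log2 signal of the 2 array rows of MECOM in selected, stable and parental arrays; points are single arrays, their shape the subline, and bars the group mean and SD. The kept row, the one with the higher signal, was lower in the stable array of 5 of 5 sublines, while in the other row all groups overlapped between 8.03 and 8.51.

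PAX8, the paired-box factor most used to identify Müllerian carcinoma, stayed between 11.60 and 12.15 in all 14 arrays. Its signal was 11.87, 12.09, 11.64, 11.60 and 11.68 in the selected arrays of R1, R3, R5, R6 and R7. It was 12.02, 12.11, 12.13, 11.77 and 11.81 in their stable arrays, and 11.90, 12.09, 11.76 and 12.15 in the parental replicates. The selected array was the lower in 5 of 5 sublines, by 0.02 in R3 at the least and 0.50 at the most, yet all groups overlapped. The mean differences were -0.20 for selected minus parental (95% confidence interval -0.46 to 0.06, adjusted p = 0.406) and -0.19 for selected minus stable (SE 0.112, adjusted p = 0.468). Stable minus parental was -0.01 (-0.25 to 0.24, adjusted p = 0.999).

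SOX17, the HMG-box factor that partners PAX8, was 10.09, 10.09, 9.75, 9.88 and 9.76 in the selected arrays of R1, R3, R5, R6 and R7. It was 9.85, 10.22, 9.47, 9.58 and 9.44 in their stable arrays and 9.74, 9.78, 9.34 and 9.75 in the parental replicates. Parental replicate 3 stood below every other array, and both arrays of R1 and of R3 stood above every parental array. Selected minus parental was 0.26 (SE 0.113, adjusted p = 0.212). Without parental replicate 3 it was 0.16 (adjusted p = 0.494), so that 1 array moved the value by more than 1.5 times. R1 minus parental was 0.32 (-0.02 to 0.66, adjusted p = 0.28) and R3 minus parental 0.50 (0.16 to 0.84, adjusted p = 0.267).

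WT1, the zinc finger factor of urogenital development, ran from 9.07 to 9.53 in selected, 9.34 to 9.60 in stable and 8.98 to 9.36 in parental arrays. The stable arrays sat at the upper end, with a stable minus parental difference of 0.20 (-0.02 to 0.42, adjusted p = 0.848), and of 0.12 without parental replicate 3. EMX2, a homeobox gene needed for the urogenital tract in mice, ran from 9.75 to 10.13 in selected, 9.60 to 10.01 in stable and 9.64 to 10.12 in parental arrays. Its selected minus parental difference was 0.00 (-0.24 to 0.24, adjusted p = 0.996). The WT1 difference in that comparison was 0.03 (-0.21 to 0.26, adjusted p = 0.929). ESR1 ran from 6.18 to 6.59 in selected, 6.33 to 6.88 in stable and 6.11 to 6.66 in parental arrays, all at background. Its second row was likewise dim, with means of 6.38 in selected, 6.32 in stable and 6.36 in parental arrays.

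MUC16, the cell surface mucin that carries CA125, showed the widest range of the members and differed most by subline. Its signal was 10.20, 9.61, 9.73, 10.95 and 10.30 in the selected arrays of R1, R3, R5, R6 and R7. It was 11.13, 9.41, 10.07, 11.02 and 10.21 in their stable arrays and 10.52, 11.27, 10.99 and 11.36 in the parental replicates. Both arrays of R3, R5 and R7 lay below every parental array, whereas both arrays of R6 and the stable R1 array lay within the parental range. MUC16 averaged 10.16 ± 0.53 in selected and 10.37 ± 0.71 in stable arrays (SD, n = 5 each), against 11.03 ± 0.38 in parental arrays (SD, n = 4).

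Taken by subline, MUC16 was lower in R3 than in parental cells by a fitted difference of -1.53 (SE 0.252, 95% confidence interval -2.07 to -0.98, adjusted p = 0.0414), a 2.88-fold lower level. This was the 1 of 50 member and subline differences that passed, and in R3 0.196% of all genes passed (36 genes), 0.12% higher and 0.0761% lower. R5 minus parental was -1.14 (-1.69 to -0.59, adjusted p = 0.187) and R7 minus parental -0.78 (-1.33 to -0.23, adjusted p = 0.743). R1 minus parental was -0.37 (adjusted p = 0.391) and R6 minus parental -0.05 (adjusted p = 0.989). Genes that passed were 0.0598% of all in R5 (0.0217% higher and 0.038% lower) and 0 in R1, R6 and R7, so the adjustment weighed differently on each subline. This fit took the selected and stable arrays of a subline as replicates, so differences with inhibitor and passage entered its spread. With growth condition as a covariate, genes that passed were 96 in R3, 67 in R5, 13 in R6, 6 in R7 and 1 in R1. MUC16 in R3 was then -1.42 (adjusted p = 0.0325). The R3 call was made in 13 of 21 alternatives, with differences from -1.70 to -1.42 and adjusted p between 0.0152 and 0.208. It was lost without the stable R3 array (-1.42, adjusted p = 0.208), without parental replicate 2 (0.11), 3 (0.0828) or 4 (0.119), and without either array of R5 or R6.

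The sublines' MUC16 means spanned 1.47. A test of differences between the 5 sublines, with growth condition as a covariate, gave F = 12.4 (unadjusted p = 0.00108, adjusted p = 0.115). No member passed that test, in which 0.12% of all genes passed. MUC16 passed with trended and robust variance (adjusted p = 0.0205), a setting in which 584 genes passed, beside 22 in the main fit. Without the selected R3 array the span was 1.73 for MUC16 and 1.44 for WFDC2, but R3 then rested on its stable array alone. At an unadjusted p under 0.05 there were 3 members, MUC16, FOLR1 and SOX17, beside 15.8% of all genes. Over the 3 groups, MUC16 differed by -0.88 in selected minus parental (SE 0.251, 95% confidence interval -1.42 to -0.33, adjusted p = 0.0591). It differed by -0.67 in stable minus parental (-1.38 to 0.04, adjusted p = 0.842), and by -0.43 without the stable R3 array. The first of these passed in 3 of 18 alternatives, among them the fit without the selected R6 array (-1.07, adjusted p = 0.00975) and that without parental replicate 1 (-1.05, adjusted p = 0.0478). In other fits it was weaker, at -0.74 without the selected R3 array (adjusted p = 0.122) and -0.77 without parental replicate 4 (adjusted p = 0.178). Selected and stable arrays differed by -0.21 (-0.93 to 0.52, SE 0.332, adjusted p = 0.833), with 2 sublines higher and 3 lower in the selected array. That interval ignores the pairing by subline. With subline as a replicate block the same difference had an SE of 0.150 and an adjusted p of 0.499. Leaving out 1 array moved that difference between -0.45 (without stable R3) and -0.01 (without stable R1).

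MSLN encodes mesothelin, the membrane-anchored partner of MUC16. Its signal was 8.90, 9.42, 9.44, 9.60 and 9.67 in the selected arrays of R1, R3, R5, R6 and R7. It was 9.24, 10.56, 10.24, 9.26 and 9.71 in their stable arrays and 10.39, 9.86, 9.83 and 9.79 in the parental replicates. Every selected array lay below every parental array, the only member without overlap in that comparison, beside 2.96% of all genes lower and 6.81% higher without overlap. The stable arrays split, with R3 above all 4 parental arrays, R5 above 3 of them and R1, R6 and R7 below all of them. Between stable and parental arrays no member was without overlap, beside 0.826% of all genes higher and 1.42% lower.

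MSLN averaged 9.41 ± 0.30 in selected (SD, n = 5) and 9.97 ± 0.29 in parental arrays (SD, n = 4), a difference of -0.56 (SE 0.163, 95% confidence interval -0.92 to -0.20, adjusted p = 0.0629). It passed in 3 of 18 alternatives, with adjusted p between 0.0315 and 0.237. Without parental replicate 1, which stood above the other parental arrays, it was -0.42 (adjusted p = 0.166). In 4 of 5 sublines the selected array was below the stable one, by up to 1.14 in R3, while R6 differed the other way by 0.34. The mean selected minus stable difference was -0.39 (SE 0.249, adjusted p = 0.514), and -0.20 (adjusted p = 0.677) without the stable R3 array.

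WFDC2, a secreted protein with whey acidic protein domains, was 11.76, 11.75, 10.70, 11.34 and 10.99 in the selected arrays of R1, R3, R5, R6 and R7. It was 11.52, 10.01, 10.58, 10.75 and 10.43 in their stable arrays and 10.70, 10.81, 10.49 and 11.02 in the parental replicates. The selected array was the higher in 5 of 5 sublines, by 0.13 at the least and by 1.74 in R3. Selected arrays of R1, R3 and R6 lay above every parental array, while those of R5 and R7 lay within the parental range. The selected minus stable difference was 0.65 (SE 0.272, adjusted p = 0.272), and with subline as a replicate block its adjusted p was 0.104. Selected minus parental was 0.56 (SE 0.205, adjusted p = 0.14), and 0.71 (adjusted p = 0.0347) without the selected R5 array. Stable minus parental was -0.09 (-0.63 to 0.45, adjusted p = 0.999).

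FOLR1, the folate receptor, was 8.35, 8.27, 8.16, 9.27 and 8.56 in the selected arrays of R1, R3, R5, R6 and R7. It was 8.81, 7.58, 8.06, 8.80 and 7.97 in their stable arrays and 7.88, 8.12, 8.44 and 8.23 in the parental replicates. Both R6 arrays, the selected R7 array and the stable R1 array stood above every parental array, and the stable R3 array below them. R6 minus parental was 0.87 (SE 0.233, adjusted p = 0.303), and the sublines' means spanned 1.11 (adjusted p = 0.187). Over the groups, selected minus parental was 0.35 (-0.08 to 0.79, adjusted p = 0.374) and stable minus parental 0.08 (-0.46 to 0.61, adjusted p = 0.999). Without the selected R6 array the selected minus parental difference was 0.17 (adjusted p = 0.499).

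**Figure D4:**
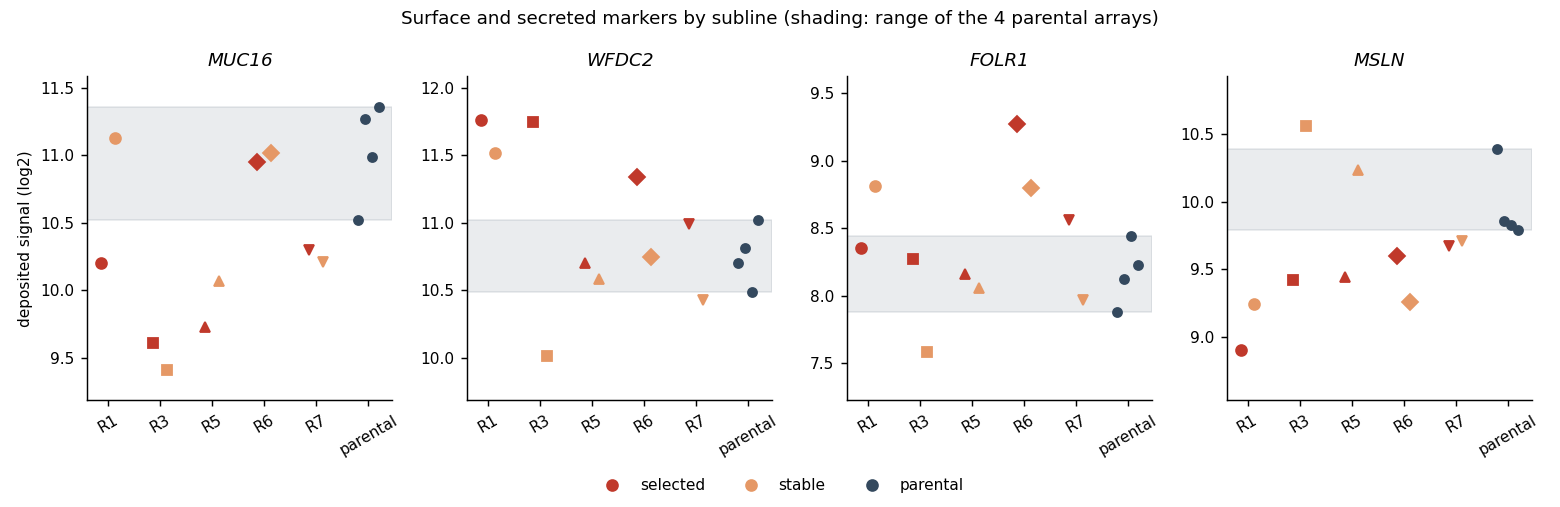
Log2 signal of MUC16, WFDC2, FOLR1 and MSLN in the selected and stable array of each subline, with the parental arrays at the right; points are single arrays and shading the range of the parental arrays. MUC16 was at or below 10.07 in both arrays of R3 and R5 and at or above 10.95 in both of R6.

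Without inhibitor, MUC16, FOLR1 and WFDC2 were each highest in the stable R1 array, next highest in stable R6 and lowest in stable R3. For FOLR1 the upper 2 hardly differed, at 8.81 in R1 and 8.80 in R6. MSLN ran the other way, highest in stable R3 and lowest in stable R1. These are 5 arrays per gene, the order was seen in the values, and it was not tested. In the selected arrays MUC16 and FOLR1 were highest in R6, and WFDC2 was highest in R1 (11.76) and R3 (11.75). The olfactory receptor mean in the stable arrays was lowest in R1 (6.19) and highest in R7 (6.70), and its part in this order was not tested.

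The genes whose signal followed that of the most variable members were sought over all 14 arrays by Pearson correlation, as a description. For MUC16 they were TTC39A (r = 0.92), CHODL (r = 0.90) and TSHR (r = 0.89), the receptor of thyrotropin. For WFDC2 they were CLTB (r = 0.94), a clathrin light chain, LIN37 (r = 0.92) and HOXA2 (r = 0.91). For FOLR1 they were ZNF571 (r = 0.92), TJP3 (r = 0.90), a tight junction protein, and FZD4 (r = 0.88), a Wnt receptor. TTC39A ran only from 7.40 to 7.79, CHODL from 7.29 to 8.08 and FZD4 from 7.18 to 7.77, so these genes lay mostly or wholly near or below 7.77. The arrays share sublines and background level, so these points are not independent.

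Among 30 measured surface and secreted markers of serous carcinoma other than the members, 2 rose, 1 fell and 27 did not pass in selected against parental arrays. Over all genes 5.03% rose and 1.89% fell in that comparison. The list's median was 0.129, beside -0.013 over all genes. SLPI, an antiprotease with whey acidic protein domains, was 12.40, 12.63, 12.27, 12.90 and 12.74 in the selected arrays in subline order, against 12.15, 12.05, 12.29 and 12.06 in the parental replicates (difference 0.45, SE 0.121, adjusted p = 0.047). The selected R5 array lay within the parental range, and the call was made in 7 of 18 alternatives. SPP1, the gene of osteopontin, rose by 0.84 (SE 0.172, adjusted p = 0.0142) and CLDN6, a tight junction claudin, fell by 0.77 (SE 0.156, adjusted p = 0.0137), but both averaged below 7.77 over the 14 arrays. None of the 30 passed in stable against parental or in selected against stable arrays.

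Of 21 measured family members or pathway partners of the 10 genes, 2 rose and 1 fell in selected against parental arrays, and 18 did not pass, beside 5.03% of all genes that rose and 1.89% that fell. The 2 that rose were PI3 and SLPI, and SLPI was already counted among the surface and secreted markers above. PI3, which encodes elafin, belongs with WFDC2 and SLPI to the whey acidic protein family, and all 3 genes lie on chromosome 20. Its signal was 9.34, 10.09, 10.09, 10.11 and 10.37 in the selected arrays of R1, R3, R5, R6 and R7 and 9.44, 9.83, 9.41, 9.60 and 8.92 in their stable arrays. The parental replicates gave 9.09, 9.07, 9.00 and 9.27, so every selected array lay above every parental one. PI3 rose by 0.89 (SE 0.167, adjusted p = 0.00983) in selected against parental arrays, a call made in 18 of 18 alternatives. EGR1, whose zinc fingers resemble those of WT1, fell by 0.59 (adjusted p = 0.0364) in the same comparison, a call made in 10 of 18 alternatives. Its stable minus parental difference was larger, at -1.56 (SE 0.267), but did not pass (adjusted p = 0.135). EGR1 was 0.97 higher in selected than in stable arrays (adjusted p = 0.0476), the only 1 of the 21 that passed there. Over all genes 1.54% were higher and 0.614% lower in that comparison. That call was made in 7 of 21 alternatives and was lost without both R7 arrays (adjusted p = 0.214) and in 9 of the 10 fits without 1 array. None of the folate transport and metabolism genes, listed with FOLR1, passed.

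Of 19 measured regulators of Müllerian and urogenital development, 2 rose in selected against parental arrays and 17 did not pass, beside 5.03% of all genes that rose. HOXD10, a homeobox gene, rose by 0.43 (SE 0.104, adjusted p = 0.0316) and LIFR, the receptor of leukaemia inhibitory factor, by 0.49 (SE 0.122, adjusted p = 0.0356). HOXD10 averaged 7.19 and LIFR 7.76 over the 14 arrays, both below 7.77. Of 18 measured targets and partners of the estrogen receptor, 2 rose in the same comparison, with the same share over all genes, and 16 did not pass. These were CTSD, a lysosomal protease that estrogen induces in breast cancer cells (0.53, SE 0.080, adjusted p = 0.0038), and NCOA1, a receptor coactivator (0.37, SE 0.101, adjusted p = 0.0499). The NCOA1 call was made in 7 of 18 alternatives. CTSD was also higher in selected than in stable arrays (0.44, SE 0.086, adjusted p = 0.0288), the only 1 of the 18 that passed there. Over all genes 1.54% were higher in that comparison. That CTSD call was made in 12 of 21 alternatives. Of these 18 genes, 11 averaged above 7.77, while the classical targets PGR (5.81) and GREB1 (6.79) lay below it, as ESR1 did.

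Marker lists of other cell types were set beside the members. None of 12 ciliated cell, 12 fibroblast, 11 leukocyte or 10 endothelial markers passed in any of the 3 comparisons. Of 8 measured fallopian tube secretory markers, 3 rose in selected against parental arrays: CD44 by 1.46, LGR5 by 1.15 and ITGA6, a laminin-binding integrin, by 0.50 (adjusted p = 0.0114). Over all genes 5.03% rose. LGR5 was also higher in selected than in stable arrays, by 1.96 (adjusted p = 0.0116), and its stable minus parental difference was -0.80 (adjusted p = 0.747). CD44 and LGR5 are also known as markers of progenitor cells in several epithelia. The secretory list's mean ran from 8.90 to 8.96 in selected, 8.59 to 8.74 in stable and 8.49 to 8.62 in parental arrays. Its median selected minus parental difference was only 0.100, beside -0.013 over all genes. Of the 8 markers 5 were above 0, and the lowest was at -0.11, so the list did not rise as a whole. Single markers rose in the mesothelial list (KRT5 by 1.26, of 11), the epithelial list (ELF3 by 0.63, of 14) and the list of other ovarian tumour types (ANXA4 by 0.39, of 15). Adjusted p was 0.0196 for KRT5, 0.0196 for ELF3 and 0.0356 for ANXA4. The calls were made in 14, 12 and 9 of 18 alternatives, in that order. KRT5 ran from 11.51 to 12.27 in selected arrays and was 9.81, 11.10, 9.95 and 11.08 in the parental replicates, so its difference rested largely on replicates 1 and 3. The mesothelial list's mean ran from 7.50 to 7.61 in selected, 7.40 to 7.57 in stable and 7.36 to 7.54 in parental arrays, with 3 of 11 markers above 7.77. Only 3 of its 11 selected minus parental differences were above 0, with a median of -0.010, so most of that list did not rise. The epithelial list's mean overlapped between the groups, at 10.66 to 11.06 in selected, 10.40 to 11.03 in stable and 10.62 to 10.83 in parental arrays. Yet 12 of its 14 selected minus parental differences were above 0, with a median of 0.162, beside -0.013 over all genes. In selected minus stable 12 of 14 were above 0 as well, with a median of 0.152, beside 0.003 over all genes. Whether these shifts have a part in the members' differences was not tested.

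The parental replicates themselves fell into pairs for many members. For PAX8, WT1, SOX17, MECOM, EMX2, MUC16 and WFDC2, replicates 2 and 4 both lay above replicates 1 and 3, which is 7 of 10 members, and for ESR1 both lay below. Over all genes 22.6% had replicates 2 and 4 both above and 14.2% both below. The olfactory receptor mean was lower in replicates 2 (6.18) and 4 (6.41) than in 1 (6.43) and 3 (6.72), and its part in the split was not tested.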

How the data were processed

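RNA of OVCAR-3 cells and of its resistant sublines was labelled with biotin and hybridised to Affymetrix whole-transcript arrays, per the labels' protocols. The deposited values were taken as log2 signal; base 2 was read from their range (4.34 to 14.9), since no log base is stated. How the arrays were background-corrected, normalized and summarised is not stated in the labels, so differences may hold effects of those steps. The number of arrays limits the precision. No scan date or batch was used.

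The platform annotation names 1 gene for 19148 of 32295 rows, several for 1376 and none for the other 11771. Symbols were updated by gene ID through RefSeq (GRCh38.p14), which held 19118 of those with 1 gene. For 633 genes with more rows the row of highest mean was kept, leaving 18398 genes. MECOM and ESR1 have 2 rows each and the other members 1.

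Tests, two-sided, were made with lmFit and eBayes of limma 3.58.1 (R 4.3.3). P-values were adjusted over all genes by the Benjamini-Hochberg method, with a threshold of 0.05. A gene is said to have passed, or to be called, at an adjusted p under that threshold. The group comparisons used only the arrays compared. For the sublines against parental cells, all 14 arrays entered as 6 groups, so that the spread is shared, and differences between sublines an F test over 10 arrays with growth condition as a covariate. The fits were tested on simulated data. The labels pair selected and stable arrays by subline. The correlation of paired deviations from group means was highest in R1 (0.636), followed by R6 (0.546), R5 (0.371), R3 (0.050) and R7 (-0.468).

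The members and lists were chosen with earlier results of these data known. Named are all members, up to 4 genes of smallest p per list and comparison, and the 3 genes most correlated with each of the 3 members of widest range. Alternatives were quantile normalization, median centring, leaving out genes under the 40th percentile of mean signal, other rows per gene, trended and robust variance, array weights, all 14 arrays in 1 fit, the olfactory receptor mean as a covariate, leaving out arrays, a block for subline, and fits with or without a growth condition term. Subline alternatives for single members were run for MUC16, FOLR1 and WFDC2, whose subline means spanned at least 1. Figures were drawn with matplotlib 3.10.9.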

Additional observations from a re-analysis of the deposited data

Results flagged for a closer look

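Single arrays stood apart from their group for 2 members, by Dixon's criterion for groups of 4 to 10 samples. SOX17 was 9.34 in parental replicate 3 and 9.74 to 9.78 in the other parental arrays, a gap of 0.902 of the group's range against a critical value of 0.829. MSLN was 10.39 in parental replicate 1 and 9.79 to 9.86 in the other parental arrays, a gap of 0.878 of the range. Chance flags about 1 in 20 groups, and 30 groups of a member's arrays were examined.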

How the results depend on the processing

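Of 1381 refits of single genes, 1218 kept their direction and their side of the threshold, 110 lost and 11 gained a call, and 42 changed sign; no sign-changed value was called in the first place. The causes of the shifts were not tested. Genes passing in selected against parental (1273) were 2308 with the olfactory receptor covariate, 621 without R7 and 517 (without parental replicate 4) to 1343 without 1 array. The single gene of stable against parental became 2 with quantile normalization or median centring, 4 without dim genes, 5 with trended and robust variance, 286 with array weights, 8 with all arrays in 1 fit, 76 with the covariate and 1 to 26 without 1 array. The 397 of selected against stable became 906 with subline as a replicate block, 0 with block and covariate, 0 without R7, 1480 with array weights, 680 with all arrays in 1 fit and 86 (without selected R3) to 962 (without stable R1) without 1 array. The 22 between sublines became 0 with quantile normalization, the covariate or no growth term, 8 with median centring, 584 with trended and robust variance and 0 to 410 (without selected R3) without 1 array. The 1 member call among sublines was 0 or 1 without 1 array, and R3 against parental gave 1 gene without its stable and 228 without its selected array. The block changed no other call of a member.

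Values that changed sign follow. Selected minus parental was -0.032 with quantile normalization, -0.007 with array weights and -0.059 to 0.077 without 1 array for WT1, -0.001 with quantile normalization for MECOM, and -0.097 to 0.062 without 1 array for EMX2. Stable minus parental for PAX8 was 0.013 with centring, 0.033 with the covariate, 0.034 without R7 and -0.079 to 0.054 without 1 array. For SOX17 it was -0.146 with array weights and -0.066 to 0.128 without 1 array, and over that same set it was -0.007 to 0.177 for ESR1, -0.065 to 0.242 for FOLR1 and -0.310 to 0.068 for WFDC2. Selected minus stable for ESR1 was 0.133 with block and covariate. Against parental, WFDC2 with the covariate was -0.019 in R3, 0.065 in R5 and 0.077 in R7. With a growth term WFDC2 was -0.198 in R3 and -0.031 in R6, MUC16 0.052 in R6 and FOLR1 -0.042 in R7. Without 1 array, WFDC2 was -0.741 to 0.994 in R3 and -0.322 to 0.240 in R7, MUC16 -0.222 to 0.057 in R6 and -0.838 to 0.094 in R1, and FOLR1 -0.197 to 0.389 in R7, -0.588 to 0.103 in R3 and -0.154 to 0.032 in R5. MECOM in stable minus parental passed with array weights (-0.457, adjusted p = 0.017). ESR1 gave no value without dim genes.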
